A study of Homo sapiens with 13 samples.

Results

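The mRNA 3' ends of chromosome 18 genes were compared between human cells in which transcription depended on wild-type RNA polymerase II (Pol II) and cells that depended on a slow form of it. The members were all 3' mRNA isoforms assigned to genes on chromosome 18, with ATP5A1 left out, and numbered 3284 of 211765 isoforms, from 209 of 14576 genes. An isoform here is a single 3' end position of a gene. Reads were summed per gene and the genes were ordered by their stop codons in hg19. The chromosome was chosen because its genes were lower in R749H, so that the differences between the lines below are a description. Where genes called by a fit over all genes are counted, the share of all genes called stands beside the first count, and no call is evidence for the chromosome or a list.

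Both lines were HEK293 cells, a human embryonic kidney line, made with the Flp-in T-REx system and carrying an integrated, doxycycline-induced Rpb1, the largest subunit of Pol II. The wild-type and R749H forms both resist α-amanitin, a toxin that blocks the cell's own Pol II, and R749H changes the funnel domain and slows elongation. The transgene was on a pcDNA5 plasmid, and the labels name its tag as Avitag in the titles and as B10 in the source names. Per the labels, both lines received doxycycline at 2 µg/ml for 24 hr and α-amanitin at 2.5 µg/ml for 42 hr, in medium with hygromycin and blasticidin. The study's methods give a shorter induction before the toxin, with doxycycline kept on during the 42 hr of α-amanitin. There were 5 wild-type and 4 R749H libraries, made by 3' READS, which sequences the junction of an mRNA with its poly(A) tail. Each genotype was 1 stable line, so an effect of the substitution and any other difference between the lines, such as the number of copies of a chromosome, cannot be told apart.

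Chromosome 18 is a gene-poor autosome with a short arm, 18p, and a long arm, 18q. It carries SMAD2, SMAD4 and SMAD7 of the TGF-beta pathway, BCL2 and PMAIP1, which act for and against cell survival, and the clusters of desmosomal cadherins and clade B serpins. A human gene often ends at several nearby positions, downstream of a hexamer such as AATAAA or ATTAAA that the cleavage and polyadenylation machinery binds.

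The wild-type libraries held 2479851 to 10135014 reads and the R749H libraries 3863468 to 6475987. R749H replicate 3 stood apart, where 6.60% of the isoforms rested on only 1 read. This part was 34.6% to 35.3% in the remaining R749H libraries and up to 36.2% in wild type. It had 521 chromosome 18 isoforms, and the other libraries had 950 to 1762. Of the HEK293 markers, VIM and INA were read in every library, PAX2 was at 0 in at least 1 R749H library, LHX1 reached 3 reads in a library, and NEFH had no entry in the files used here. Summed over these 5 genes, the level was 119 to 189.9 reads per M reads (CPM) in wild type and 89.3 to 117 in R749H, and its part in the results was not tested. The markers of blood, liver, fibroblast and endothelial cells summed to at most 1.58 CPM in wild type and 5.07 in R749H, where APOA1 reached 4.39, and PTPRC, PECAM1 and CDH5 had no entry. In such bulk samples, fewer cells and less RNA per cell cannot be told apart.

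The sequences below are the last 30 nt of the dominant 3' ends of genes to which the results refer, read from GRCh37 on the strand of the gene and printed 5' to 3'. They show what the counted molecules end with, and the capitals mark AATAAA or ATTAAA. All of these ends lie in annotated UTRs.
PMAIP1, chr18:57571508-57571537, plus strand: ggcagtaaactATTAAAagttttcactgtt
NDUFV2, chr18:9134303-9134332, plus strand: ctagagaAATAAAatatggacttccaatct
TXNL4A, chr18:77733514-77733543, minus strand: caccgaAATAAAcaagcacgtggtgagagg
IER3IP1, chr18:44682402-44682431, minus strand: aagctgaaAATAAAaccagggtttctattt
CABYR, chr18:21741534-21741563, plus strand: gtaatgtatcAATAAActtcatgcaagcat
KLHL14, chr18:30252638-30252667, minus strand: ggaaaactttaAATAAAaactttatgtact
TUBB6, chr18:12326538-12326567, plus strand: ttcatAATAAAatactaaacgtgtgtcttc
HSBP1L1, dominant end, chr18:77730776-77730805, plus strand: acacatttacAATAAAtatacAATAAActt
HSBP1L1, last end lacking R749H reads, chr18:77730791-77730820, plus strand: atatacAATAAActtacaaatgtggaatgt

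Chromosome 18 held a smaller part of the reads in every R749H library than in any wild-type library. Its share was 0.575%, 0.467%, 0.488%, 0.4998% and 0.529% in wild-type replicates 1 to 5 and 0.327%, 0.389%, 0.394% and 0.370% in R749H replicates 1 to 4. The means were 0.512% ± 0.0419 (SD, n = 5) and 0.370% ± 0.0308 (SD, n = 4). PMAIP1 alone, which encodes the pro-apoptotic protein NOXA, gave 26.0% ± 2.46 of the chromosome's reads in wild type and 34.7% ± 3.63 in R749H. Without it the shares were 0.379% ± 0.0387 and 0.241% ± 0.0183, and the groups again did not overlap.

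**Figure D1:**
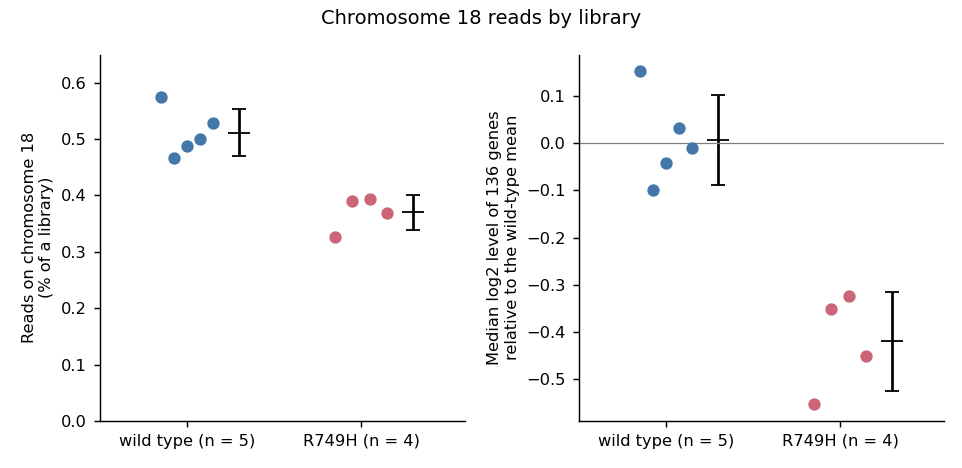
Percent of each library's reads on chromosome 18 (left) and the median log2 level of 136 chromosome 18 genes relative to the wild-type mean (right), with 1 point per library and the mean ± SD as a black bar. All R749H points lie below all wild-type points in both panels.

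The lower share was spread over most genes. Of the 209 genes, 136 passed the filter on low reads. Among them 117 had a lower mean in R749H and 19 a higher one, beside 54.2% lower among all 9495 genes past the filter. The median log2 difference, R749H minus wild type, was -0.48, or 0.716-fold, against -0.07 over all genes, and the quartiles were -0.94 and -0.17 against -0.56 and 0.37. The median level of these genes relative to the wild-type mean was -0.10 to 0.15 in the wild-type libraries and -0.55 to -0.32 in the R749H libraries. Without R749H replicate 3, the library that stood apart, the median difference was -0.46 and 120 of the 141 genes then past the filter were lower. The 73 genes under the filter had at most 101 reads over all 9 libraries, with a median of 15, and 54 of them were lower.

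By limma at an adjusted p under 0.05, 31 of the 136 genes were called lower, where 12.9% of all genes tested were, and 2 were called higher, where 10.9% were. Every R749H library was below every wild-type library at 26 genes, beside 10.1% of all genes, and above at 2, beside 9.72%. Because this contrast chose the chromosome, nothing is read from these counts.

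Chromosome 18 had the lowest median of the 23 chromosomes. The next, chromosome 17, had a median of -0.44 over 612 genes, and the others lay between -0.17, on chromosome 1, and 0.54, on chromosome 20. By this measure chromosomes 17 and 18 were the only ones with a median under -0.2, and chromosome 20 stood apart in the other direction.

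**Figure D2:**
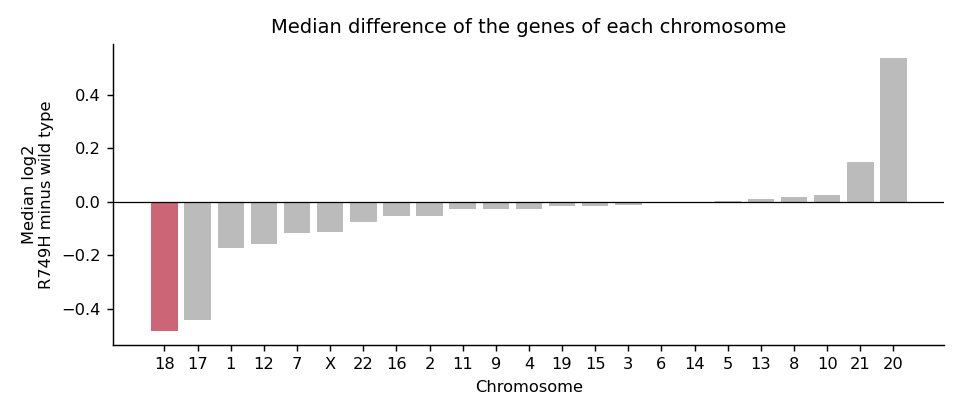
Median log2 difference, R749H minus wild type, of the genes of each chromosome, as bars in rising order with chromosome 18 in red. Chromosome 18 is at -0.48, chromosome 17 at -0.44 and chromosome 20 at 0.54.

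The difference was seen on both arms. On 18p, from USP14 to RNMT, 35 of 40 genes were lower, with a median of -0.45. On 18q, from ESCO1 to PARD6G, 82 of 96 were lower, with a median of -0.49. In windows of 10 Mb the median was between -0.89 (20 genes from RBBP8 to RNF138) and -0.33 (15 genes from TIMM21 to PARD6G), so that no window with at least 3 genes had a median above 0. USP14, a deubiquitinase of the proteasome and the first gene along the chromosome, was at 7.70 to 14.6 CPM in wild type and 7.47 to 12.4 in R749H, and the groups overlapped. PARD6G, a cell polarity protein and the last gene, was at 0.877 to 2.94 CPM in wild type and 0 to 1.74 in R749H, with overlap. The genes on the plus strand had a median of -0.46 (74 genes) and those on the minus strand -0.57 (62 genes).

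**Figure D3:**
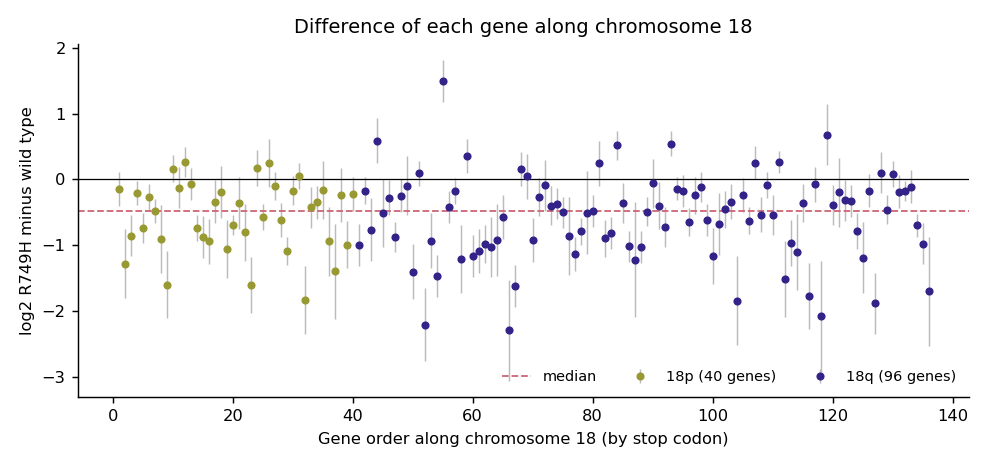
Log2 difference, R749H minus wild type, of 136 chromosome 18 genes in their order along the chromosome, coloured by arm, with the standard error as a grey bar and the median as a dashed line. Most points lie below 0 on both arms, and CABYR is the highest, at 1.49.

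The size of the difference moved with the level of the genes. It was -0.97 for the 36 genes under a mean log2 CPM of 2, -0.40 for 56 genes from 2 to 4, -0.39 for 32 genes from 4 to 6 and -0.15 for 12 genes at 6 or above. Over the other chromosomes the same bins gave -0.43, -0.10, 0.01 and 0.17, so that chromosome 18 minus the rest was -0.54 to -0.30 in each bin. The part of the level in the result was not tested.

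The genes with most reads fell into genes with clearly separate groups and genes whose groups overlapped. NDUFV2, a core subunit of mitochondrial complex I, was at 256, 237, 265, 252 and 291 CPM in wild type and 176, 152, 153 and 164 in R749H, a log2 difference of -0.69 ± 0.15 (SE). Its groups did not overlap. TXNL4A, a component of the U5 snRNP of the spliceosome, was at 205, 252, 226, 281 and 315 CPM in wild type and 146, 177, 132 and 175 in R749H, a difference of -0.69 ± 0.17, again without overlap. TPGS2, a subunit of the tubulin polyglutamylase complex, was at 77.3 to 162 CPM in wild type and 55.2 to 66.7 in R749H, a difference of -0.79 ± 0.21, without overlap.

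PMAIP1 went the other way in its mean. It was at 1165, 1208, 1367, 1161 and 1132 CPM in wild type and 1142, 1715, 1310 and 1691 in R749H, and the groups overlapped. IER3IP1, an endoplasmic reticulum protein, was at 80.5, 152, 149, 146 and 194 CPM in wild type and 160, 184, 238 and 222 in R749H, with overlap. The other genes with most reads were PQLC1, SNRPD1, which is a core protein of the spliceosomal snRNPs, CXXC1, which binds unmethylated CpG, TUBB6, a beta-tubulin, and HSBP1L1. Their log2 differences were between -0.18 and -0.11, and the groups overlapped at each.

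**Figure D4:**
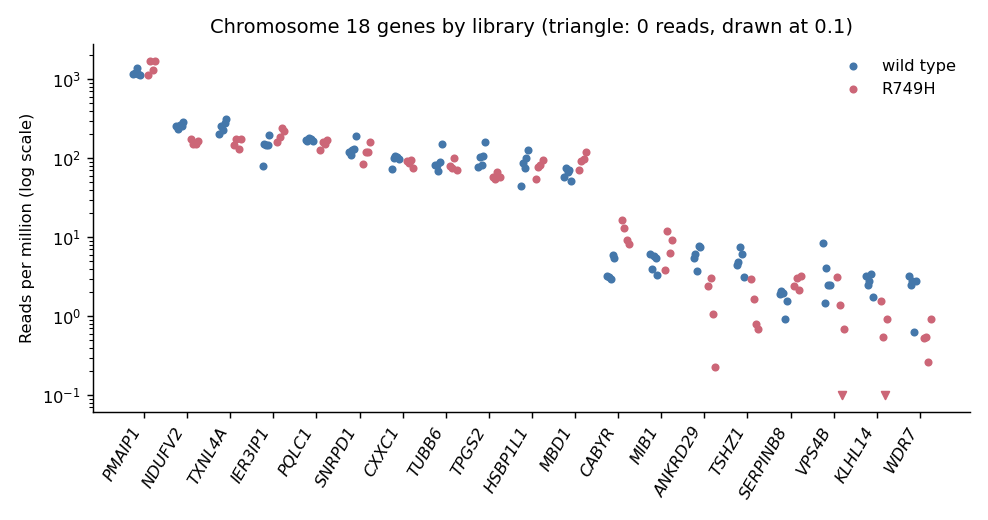
CPM on a log axis for the 10 chromosome 18 genes with most reads and the 5 lowest and 5 highest log2 differences, with 1 point per library in blue for wild type and red for R749H. NDUFV2 and TXNL4A are separate in the 2 lines and CABYR is higher in every R749H library.

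The genes with the largest differences had few reads. KLHL14, a Kelch-like protein, was at 3.21, 2.51, 2.78, 3.38 and 1.75 CPM in wild type and 1.57, 0.549, 0 and 0.924 in R749H. ANKRD29 was at 5.45, 6.07, 3.76, 7.85 and 7.54 CPM in wild type and 2.44, 3.02, 1.07 and 0.231 in R749H. Neither of these overlapped between the lines. KLHL14 had no read in R749H replicate 3, and its log2 difference of -2.29 was -1.42 without that library. TSHZ1, a zinc finger transcription factor, was at 3.16 to 7.52 CPM in wild type and 0.693 to 2.96 in R749H, without overlap. VPS4B, an ATPase of the ESCRT pathway, and WDR7 had differences of -2.08 and -1.84, and their groups overlapped. VPS4B was at -1.06 without R749H replicate 3, where it had no read. On the other side, CABYR, a calcium-binding protein known from sperm, was at 3.21, 3.14, 2.94, 6.03 and 5.44 CPM in wild type and 16.4, 12.9, 9.34 and 8.32 in R749H, a log2 difference of 1.49 ± 0.32. All its R749H libraries were above all wild-type libraries. SERPINB8, a clade B serpin, was at 0.913 to 2.09 CPM in wild type and 2.13 to 3.24 in R749H, without overlap. MIB1, a ubiquitin ligase of Notch ligands, and MBD1, which binds methylated DNA, had differences of 0.59 and 0.54, with overlap.

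Grouped by function, most lists leaned the same way. The counts below are of genes past the filter, and the share of all genes called lower is the 12.9% given above. All 9 genes of RNA and translation were lower (8 without R749H replicate 3, when RPL17, a ribosomal protein, was at 0.21), with a median of -0.69, and 4 were called lower, among them NARS, the cytoplasmic asparaginyl-tRNA synthetase, at -0.62, and RBFA, a mitochondrial ribosome factor, at -0.97. Of 10 genes of mitochondria and metabolism, 9 were lower, with a median of -0.33, and 4 were called lower, including IMPA2, an inositol monophosphatase, at -1.08 and ME2, the mitochondrial malic enzyme, at -0.64. AFG3L2, a mitochondrial protease, was at 0.06.

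All 3 desmosomal cadherins with enough reads were lower, with a median of -1.02, and DSC3 and DSC2 were called lower. DSC2 was at 8.07 to 16.0 CPM in wild type and 4.16 to 8.54 in R749H, with overlap. Of the 3 cell death genes, 2 were lower and PMAIP1 was higher in mean, at 0.26, with overlap. BCL2, which opposes apoptosis, was at 2.62 to 4.38 CPM in wild type and 0.534 to 1.85 in R749H. Its difference was -1.76 ± 0.50, without overlap. MALT1, a paracaspase of NF-kappaB signalling, was at -0.53 and was not called.

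All 4 genes of TGF-beta signalling were lower in mean and none was called, with SMAD4 at -0.24, SMAD2 at -0.35, TGIF1 at -0.07 and SMAD7 at -1.21. SMAD7 had no read in R749H replicate 3, and without that library it was at 0.15, so that 3 of the 4 were lower. Of 11 genes of mitosis, chromosomes and DNA, 10 were lower, with a median of -0.47, and 1 was called lower. This was ESCO1, a cohesin acetyltransferase, at -0.99, while NDC80, of the outer kinetochore, was at -0.48 and TYMS, thymidylate synthase, at -0.21, and SKA1, also of the kinetochore, at -0.17. Of 12 genes of transcription and chromatin, 10 were lower, with a median of -0.43, none was called lower and MBD1 was called higher. ELP2, of the Elongator complex, was at -0.50.

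Of 16 genes of trafficking and membranes, 12 were lower, with a median of -0.39, and 2 were called lower. SEC11C, of the signal peptidase, was at -0.09 and NPC1, the lysosomal cholesterol transporter, at 0.09. Of 9 genes of cytoskeleton, adhesion and signalling, 8 were lower, with a median of -0.33, and 2 were called lower. EPB41L3, a membrane skeleton protein, was at 44.6 to 70.1 CPM in wild type and 29.6 to 38.7 in R749H, without overlap, and MYL12B, a myosin light chain, was at 0.26 and PHLPP1, a phosphatase of Akt, at -0.35. Of 6 genes of ubiquitin and the proteasome, 4 were lower, with a median of -0.25, and 1 was called lower. NEDD4L, a ubiquitin ligase, was at 0.26. The 2 zinc finger genes past the filter, ZNF24 and ZNF407, were at 0.05 and -1.18.

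The isoforms taken one by one showed the same lean. Of 153 chromosome 18 isoforms averaging 20 reads per library or more, 115 were lower in R749H, or 75.2%, beside 46.2% of all 14146 such isoforms. Their median difference was -0.34 against 0.06. Every R749H library was below every wild-type library at 23, where 7.35% of all isoforms were, and above at 3, where 11.3% were. Of the 33 genes with at least 2 such isoforms, 21 had all of them lower, 4 had all of them higher and 8 had some of each.

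The choice of 3' end was largely shared between the lines. The end with most reads was the same nucleotide in both lines at 119 of 136 genes, or 87.5%, against 88.8% of all genes, and was within 10 nt at 127. It lay at a median of 998.5 nt after the stop codon, and 134 of these ends were in annotated UTRs. AATAAA was found in the last 30 nt of 99 of the 136 dominant wild-type ends, or 72.8% (Wilson 95% interval 64.8 to 79.6), against 65.3% of all genes. ATTAAA without AATAAA was found at 22, or 16.2%, as over all genes, and neither at 15. Only the strand of the gene was searched, and a match is a description of the letters.

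In the 107 genes averaging 20 reads per library or more, the reads were also divided at the median position of the gene. The share of reads downstream was lower in R749H at 57 genes, or 53.3%, against 55.7% of all 7872 genes tested. By limma 2 genes were called, where 0.419% of all 7872 genes were. One direction at a time, 1 was called upstream, beside 0.267% of all genes, and 1 downstream, beside 0.152%. TUBB6 moved downstream, from 16.1% ± 1.18 (SD, n = 5) of its reads after the dominant end to 25.1% ± 2.17 (SD, n = 4). HSBP1L1 moved upstream, and was called in every setting tried except the division at the midpoint of the gene. The TUBB6 call was lost under the replicate block and when any wild-type library, or R749H replicate 2 or 4, was left out. By the log2 odds of downstream against upstream reads, the next changes upstream were in NAPG, which acts in vesicle fusion, from 43.7% to 18.7% downstream, and in CNDP2, a peptidase, from 12.9% to 7.42%. The CNDP2 share in R749H was 1.96% without replicate 4. The largest changes downstream by the same measure were in TMEM241, from 85.0% to 93.0%, RBFA, from 56.2% to 67.9%, and LAMA1, a laminin chain, from 30.2% to 49.1%. TMEM241, RBFA and LAMA1 were at 100% in R749H replicate 3, and without it their R749H shares were 90.6%, 57.2% and 32.2%. None of these 5 was called.

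HSBP1L1 lacked nearly all reads past its dominant end in R749H. In wild type, 354 nt after the stop codon held 109, 342, 337, 859 and 578 reads, and in R749H 314, 283, 306 and 409. The ends up to 20 nt further on held 30, 76, 117, 231 and 147 reads in wild type, or 21.4% ± 2.80 of the gene's reads (SD, n = 5). In R749H they held 0, 0, 1 and 0. The 4 R749H libraries had 317, 284, 307 and 411 reads of the gene, so that a count of 0 still allows a share of up to 0.946%, 1.06% and 0.730% in replicates 1, 2 and 4, for counting error only. The wild-type reads were spread over ends 356, 363, 364 and 369 nt after the stop codon, and the sequences above show AATAAA at 2 places before the dominant end.

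Such losses were rare in the data. Of 22413 isoforms read in every wild-type library and averaging 10 reads there or more, 8 had no read in any R749H library, or 0.0357%, and 3 of these 8 were in HSBP1L1. The isoform itself was chosen after its values were seen. The level of the gene as a whole was 44.6 to 128 CPM in wild type and 55.3 to 94.98 in R749H, with overlap.

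**Figure D5:**
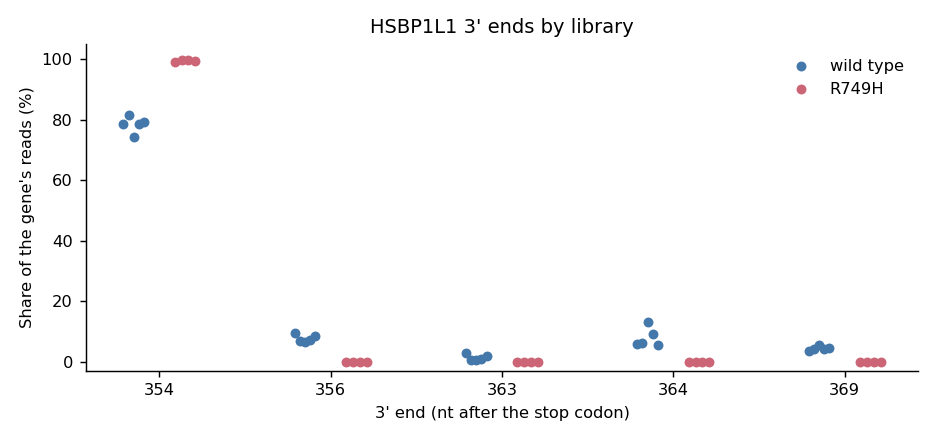
Share of HSBP1L1 reads at each 3' end averaging 2 reads per library or more, by its distance after the stop codon, with 1 point per library. The end at 354 nt holds nearly all R749H reads, and the 4 later ends have reads only in wild type.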

How the data were processed

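Poly(A) RNA was measured by 3' READS in 5 wild-type and 4 R749H libraries. The 4 eNETseq samples are not analysed here. The authors mapped reads to hg19, kept those with non-templated As and gave each end to the CCDS gene whose stop codon lay at most 5 kb before it. The mapper is given as bowtie in the paper and as Bowtie2 2.3.2 in the submitters' processing notes. The deposited values are a signal, the isoform's reads after each library was brought to 7 M poly(A) reads. Dividing by each library's smallest step gave whole reads for 100% of values, within 0.006.

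Reads per gene were fitted as log2 CPM (prior 0.5 reads, TMM, filterByExpr) with limma 3.58.1 and edgeR 4.0.16 in R 4.3.3. DESeq2 1.42.0 and edgeR's count test were alternatives. Scripts were tested on simulated data. In a simulation of gene reads with 9204 genes, 126 of 200 planted log2 changes of 1 were recovered with 3 false calls. In one of shifts with 7872 genes, 81 of 200 planted log2 odds changes of 1 were recovered with 5 false calls. Changes were planted only in genes above a minimum mean of reads. Recovery of smaller changes, or in genes with fewer reads, was not tested. Each simulation gave all genes the same extra spread between libraries, so recovery and false calls in the real libraries may differ. Named genes were the 10 with most reads, the 5 lowest and 5 highest differences, up to 3 per list, both ends of the chromosome and the 3 largest shifts each way. The members and lists were chosen with earlier results of these data known. The paper calls the replicates biological. The labels do not say whether they were separate cultures, so how much of the spreads is technical is not known. All replicate pairs differed by more than sampling noise. Some marker genes are not reported here.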

Additional observations from a re-analysis of the deposited data

Results flagged for a closer look

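In 108 groups of values by library, 9 had 1 library far from the others of its group, by Dixon's 95% critical value. Chance flags about 1 in 20 groups. The median level of 18q genes was -0.57 in R749H replicate 1, against -0.37 to -0.33 in the other R749H libraries. Wild-type replicate 1 was low for CXXC1, at 72.2 CPM against 98.4 to 107, and high for NAPG, at 15.1 against 4.38 to 5.93, and for ZNF407, at 11.2 against 2.13 to 3.51. Wild-type replicate 5 was high for SNRPD1, at 193 CPM against 111 to 132, and for TUBB6, at 150.3 against 68.5 to 90.0. Wild-type replicate 4 was low for WDR7, at 0.639 CPM against 2.51 to 3.21. Among R749H libraries, replicate 2 was low for MALT1, at 4.67 CPM against 6.41 to 6.47, and replicate 1 for PSMG2, a proteasome assembly chaperone, at 6.10 against 8.24 to 8.32.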

How the results depend on the processing

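None of the shares, medians over the chromosome, its arms or its windows, and counts recomputed here changed direction. Of 97 named or listed genes, 16 changed sign when 1 library was left out, none of them called. With the authors' scaling alone the median of all genes moved to -0.41. Chromosome 18 genes then had a median of -0.82 (18p -0.79, 18q -0.83), with 62 called lower and 1 higher, where 27.7% and 4.54% of all genes were, and relative to all genes the median was -0.41, against -0.42 in the main analysis. With a mean of at least 100 reads, 42 genes were left, with a median of -0.32 (18p -0.32, 18q -0.34) and 35 lower. Of the 42 genes, 13 were called lower, where 18.4% of all genes were, and 0 higher, where 16% were. At a mean log2 CPM of at least 4, chosen after seeing the data, the median was -0.30 and 35 of 44 genes were lower. Without PMAIP1, also added later, the shares were 0.379% and 0.241%. With isoforms of at least 2 reads, the 18p median was -0.57 and 1 gene was called higher, where 10.5% of all genes were. Windows of 5 Mb gave a lowest median of -1.001, over 6 genes. With at least 5 reads, 268 of 361 isoforms were lower, or 74.2%, beside 52.2% of all. Dividing genes at the midpoint gave 1 shifted gene, TUBB6, where 2.92% of all genes were called.

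Leaving out 1 library at a time gave 18 to 33 genes called lower. The 18 were without R749H replicate 2, or 12.7%, where 8.46% of all genes were called. The 33 were without R749H replicate 3, or 23.4%, where 11.4% of all genes were called. Across the settings with 1 library left out, 1 to 2 genes were called higher, where 7.09% to 12.4% of all genes were. This count was 1 without wild-type replicate 1, 2, 3 or 4 or R749H replicate 2, 3 or 4. The 18p median was -0.56 to -0.38, the 18q median -0.55 to -0.38 and the lowest window median -0.96 to -0.66. Shifted genes numbered 1 to 3, where 0.0377% to 0.852% of all genes were called. Their number was 1 without each of the wild-type libraries in turn and without R749H replicate 2 or 4. It was 3 without R749H replicate 1, the setting with 0.852% of all genes called. On the recovered whole reads, edgeR called 33 lower and 2 higher, where 13.2% and 11.7% of all genes were. DESeq2 called 37 and 2, where 14.4% and 13.5% of all genes were. The cause was not tested.

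Same-numbered libraries of the lines had correlations of deviations of -0.071 to 0.051, so the numbers do not pair them. With the replicate block over replicates 1 to 4, the median was -0.54 and 1 gene was called shifted, where 0.865% of all genes were. Under the block 24 genes were called lower, where 11.9% of all genes were. Without it, over the same libraries, 27 were called lower, where 12.6% of all genes were.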
